A study of Mus musculus with 6 samples.

Results

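Genes of transcriptional repression and of DNA demethylation were examined for open chromatin in mouse embryonic stem cells (ESCs) and in cells with extended or expanded potential (EPSCs). They were Zfp281, Zmym2, Tet1, Tet2, Tet3 and Tdg, 6 of 22359 protein-coding genes of the GENCODE M1 annotation of mm9. Each gene was taken with 20 kb on either side, and every ATAC-seq peak of the 3 deposited lists that overlapped this window was kept. This gave 24 of 28965 ESC peaks, 31 of 50225 D-EPSC peaks and 36 of 46601 L-EPSC peaks, or 91 of 125791 peaks in all.

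Zfp281 is a zinc finger protein that binds GC-rich DNA and works with the NuRD corepressor and with Tet proteins in pluripotent cells. Zmym2 is a MYM-type zinc finger protein of LSD1-CoREST-HDAC complexes and is known as a barrier to totipotent-like states. Tet1, Tet2 and Tet3 are dioxygenases that oxidise 5-methylcytosine to 5-hydroxymethylcytosine and further products, and Tdg is the glycosylase that excises the most oxidised forms so that base excision repair can restore cytosine.

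The cells were of the 129SV strain, with J1 ESCs as the starting line, and each state had 2 technical replicates, so that every state is a derivative of 1 line and there was no biological replicate. ESCs grew in serum medium with LIF, CHIR99021 and PD0325901 on feeder cells or gelatin. D-EPSCs grew in N2B27 with KSR, LIF, CHIR99021, dimethindene maleate and minocycline hydrochloride, and L-EPSCs in KSR medium with LIF, CHIR99021, PD0325901, A-419259, XAV939, JNK inhibitor VIII and SB203580. LIF and CHIR99021 were thus common to all 3 states, and both EPSC types were kept without feeder cells before the assay.

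ATAC-seq marks DNA that the Tn5 transposase can reach, and a peak is an interval where its insertions pile up. Each list gives only the position of its peaks and holds all peaks of a state, so a peak has no height, no replicate value and no test. The depth behind each list is unknown, and a peak missing from a list may be below what that depth could show. Of 8 pluripotency genes (Pou5f1, Sox2, Esrrb, Zfp42, Utf1, Tdgf1, Dppa5a and Fgf4) 6 had a peak within 1 kb of a start in ESCs and all 8 in each EPSC list, where the shares over all genes were 51.5% (ESC), 63.4% (D-EPSC) and 60.8% (L-EPSC). Of 10 fibroblast genes that feeder cells would express, 2 had one in the ESC list, 6 in the D-EPSC list and 3 in the L-EPSC list, none of them above the share over all genes, and their part in the results below was not tested.

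The sequences below show stretches where the lists differed and, for comparison, stretches open in all of them, and were read from mm9, 5′ to 3′ on the strand of the gene. Capitals mark matches to the searched motifs, which were the Zfp281 core CCCCTCCCC, the GC box CCCCGCCC bound by SP and KLF factors, the KLF site CCACACCC, the octamer ATGCAAAT, the ESRRB site TCAAGGTCA, the AP-2 site GCCNNNGGC, the TCF/LEF site ATCAAAG, the Ronin core ACTACAA and the NRF1 core GCATGCGC, all on both strands. The first is the stretch before the RefSeq start of Tet1 (chr10:62350073-62350322, minus strand), which peaks of both EPSC lists overlapped and no ESC peak did. The second is the middle of an EPSC-only region deeper in Tet1 (chr10:62328579-62328878, minus strand), which the D-EPSC peak covered and which lay between the L-EPSC peaks of that region. The third is the EPSC-only region past the second Zmym2 start (chr14:57506831-57506999, plus strand). The fourth is the promoter of Zfp281 (chr1:138521228-138521477, plus strand), open in all 3 states, with a GC box. The fifth is the middle of the widest shared region away from a start, in an intron of Tet2 (chr3:133196546-133196845, minus strand).
Tet1 RefSeq promoter: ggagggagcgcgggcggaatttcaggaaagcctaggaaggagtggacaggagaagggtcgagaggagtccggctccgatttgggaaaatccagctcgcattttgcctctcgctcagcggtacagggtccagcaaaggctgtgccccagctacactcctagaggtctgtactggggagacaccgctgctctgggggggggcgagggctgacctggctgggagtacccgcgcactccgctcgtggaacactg
Tet1 intronic stretch: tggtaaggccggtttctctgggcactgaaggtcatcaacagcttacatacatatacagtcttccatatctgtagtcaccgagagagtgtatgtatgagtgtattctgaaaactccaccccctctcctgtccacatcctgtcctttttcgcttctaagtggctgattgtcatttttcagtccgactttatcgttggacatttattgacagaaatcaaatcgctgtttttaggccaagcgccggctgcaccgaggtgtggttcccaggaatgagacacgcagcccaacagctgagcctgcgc
Zmym2 EPSC region: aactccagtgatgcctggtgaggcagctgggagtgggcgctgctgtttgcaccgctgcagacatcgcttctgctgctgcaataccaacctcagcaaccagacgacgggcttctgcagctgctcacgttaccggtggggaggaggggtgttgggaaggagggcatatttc
Zfp281 promoter: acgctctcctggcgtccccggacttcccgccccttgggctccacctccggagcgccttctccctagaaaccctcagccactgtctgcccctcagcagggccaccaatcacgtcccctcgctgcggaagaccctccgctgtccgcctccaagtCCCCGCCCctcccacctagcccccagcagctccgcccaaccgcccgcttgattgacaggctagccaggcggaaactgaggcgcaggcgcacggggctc
Tet2 intronic region: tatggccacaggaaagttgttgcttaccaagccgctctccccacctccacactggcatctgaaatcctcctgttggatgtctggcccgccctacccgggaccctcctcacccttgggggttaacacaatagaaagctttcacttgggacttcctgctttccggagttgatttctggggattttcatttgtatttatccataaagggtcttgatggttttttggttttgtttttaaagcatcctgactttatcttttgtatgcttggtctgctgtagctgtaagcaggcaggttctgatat

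To ask whether the genes were open at their starts, peaks were sought within 1 kb of every annotated start of a protein-coding transcript. With the GENCODE starts, ESCs had a start peak at 6 of 6 genes against 51.5% of all genes. D-EPSCs had one at 5 genes (63.4% of all genes) and L-EPSCs at the same 5 (60.8%), Tet1 being the exception in both. Zfp281, Zmym2, Tet2, Tet3 and Tdg were therefore open at a start in every state. With RefSeq starts, matched to mm9 by their sequence, the exception moved to the other side. ESCs had 5 of 6 genes, without Tet1 (54.8% of the RefSeq genes placed), and both D-EPSCs (66.5%) and L-EPSCs (63.8%) had 6 of 6. Both annotations thus gave the same calls for the other 5 genes, and Tet1 turned with the start chosen for it and with the distance.

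**Figure D1:**
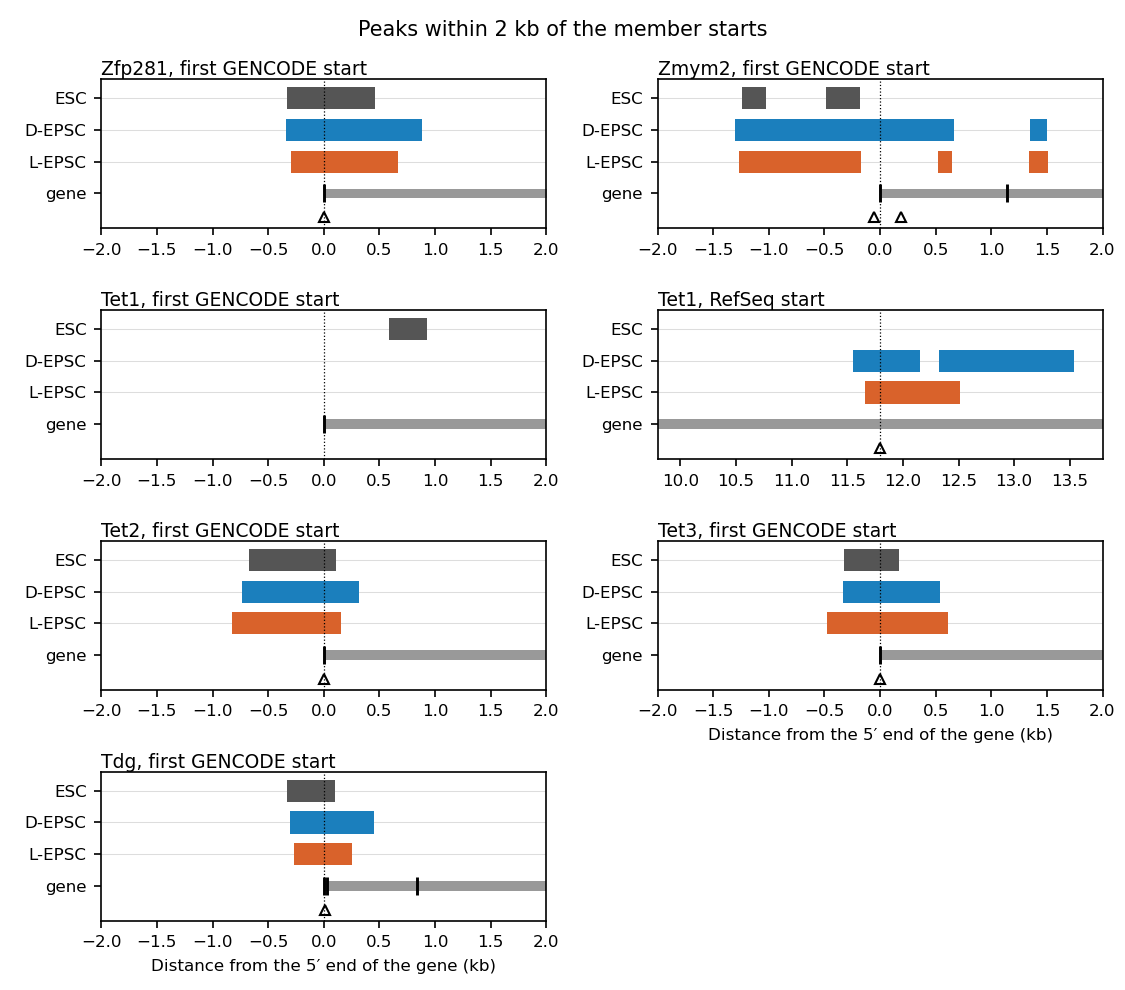
Peaks of the 3 lists (bars, by list) within 2 kb of the first GENCODE start of each gene and of the RefSeq start of Tet1, against the distance from the 5′ end of the gene in kb. Black ticks mark GENCODE coding starts and open triangles RefSeq starts. At Tet1 the ESC bar of 343 bp lies near the GENCODE start, and the D-EPSC bars of 604 and 1220 bp and the L-EPSC bar of 857 bp lie at the RefSeq start.

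Zfp281 (chr1:138521478-138526630, plus strand) was open at its start in all 3 states, with wider peaks in the EPSC lists. The start peak was 798 bp in ESCs (chr1:138521144-138521941), 1224 bp in D-EPSCs (chr1:138521141-138522364) and 956 bp in L-EPSCs (chr1:138521185-138522140). The upstream edges lay close together, 334, 337 and 293 bp before the start, while the downstream edges lay 463, 886 and 662 bp past it. The added width was therefore on the side of the gene body. Peaks covered 39.9% (ESC), 61.2% (D-EPSC) and 47.8% (L-EPSC) of the 1 kb on either side of the start. The promoter printed above lay inside the peak of every list.

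Away from its start, Zfp281 had a region 11.5 kb upstream in all 3 lists, with peaks of 389 bp (ESC), 344 bp (D-EPSC) and 364 bp (L-EPSC). It was the widest region of the window away from the start (chr1:138509740-138510188) and lay between genes. A second shared region 19.8 kb past the start had peaks of 268, 293 and 261 bp in the same order. The remaining peak of the window was in D-EPSCs alone, 21.4 kb past the start (256 bp, chr1:138542755-138543010). It stood 1322 bp from the nearest ESC peak and 1401 bp from the nearest L-EPSC peak. Zfp281 thus had 3 ESC, 4 D-EPSC and 3 L-EPSC peaks, with no region in both EPSC lists only and none in ESCs only.

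Zmym2 (chr14:57505490-57579182, plus strand) had nearly all of its peaks at its starts. ESCs had a pair of separate peaks before the first start, of 217 bp (chr14:57504251-57504467) and 307 bp (chr14:57505005-57505311). D-EPSCs had 1 peak of 1965 bp across the same stretch and over the start (chr14:57504188-57506152), and L-EPSCs a peak of 1095 bp that ended 171 bp before the start (chr14:57504225-57505319) with a second of 121 bp past it. The D-EPSC peak covered all GENCODE and RefSeq starts of this stretch, while neither ESC peak nor either L-EPSC peak reached the first start. It was at percentile 99.4 of the widest start peaks of D-EPSC genes, against percentile 16.2 for the ESC peak and 85.3 for the L-EPSC peak in their own lists.

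Past the second Zmym2 start (position 57506631), both EPSC lists had a narrow peak that ESCs lacked (chr14:57506831-57506999). It was 148 bp wide in D-EPSCs. In L-EPSCs it was 169 bp wide and began 200 bp after that start. It lay in an intron and was 1519 bp from the nearest ESC peak. L-EPSCs alone had a peak of 280 bp 13.0 kb upstream of the gene, the widest region of the window away from a start (chr14:57492351-57492630). Of this region, 71.4% aligned with a stretch of chromosome 11 at 90.5% identity. The gene body beyond the start region had no further peak in any list.

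The start region of Zmym2 has a copy in the genome. Of the 1965 bp of the merged region, 1847 bp (chr14:57504199-57506045) align in inverted orientation with chr14:57429920-57431769, 72429 bp away, at 96.3% identity. That copy is the start region of Zmym5 (chr14:57409425-57430553, minus strand), another MYM-type zinc finger gene. The longest stretch identical in both was 398 bp (chr14:57505390-57505787), which spans the first GENCODE start and the RefSeq starts of Zmym2. A read pair lying wholly in such a stretch has 2 equal placements, which lowers its mapping quality, and the authors kept reads of mapping quality 20 or more. The interval of 537 bp between the ESC peaks was 98.5% identical to the copy, against 95.4% and 93.8% in the ESC peaks of 217 and 307 bp. In the L-EPSC list the 695 bp between the peaks were 96.8% identical and the peak of 1095 bp 96.6%, while only 31 of the 121 bp of the other peak aligned with the copy, at 74.2%. How far placement of reads sets the edges of these peaks was not tested. To show how alike the loci are, 200 bases of the Zmym2 promoter (chr14:57505190-57505389, plus strand) stand beside the 215 bases of the copy (chr14:57430575-57430789, minus strand), with bases that are not identical in the alignment, insertions included, in capitals.
Zmym2 promoter stretch: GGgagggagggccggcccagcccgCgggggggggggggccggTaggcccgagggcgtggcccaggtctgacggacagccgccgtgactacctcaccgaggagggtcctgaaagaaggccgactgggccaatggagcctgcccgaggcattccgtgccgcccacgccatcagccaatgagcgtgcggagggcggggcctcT
Zmym5 copy: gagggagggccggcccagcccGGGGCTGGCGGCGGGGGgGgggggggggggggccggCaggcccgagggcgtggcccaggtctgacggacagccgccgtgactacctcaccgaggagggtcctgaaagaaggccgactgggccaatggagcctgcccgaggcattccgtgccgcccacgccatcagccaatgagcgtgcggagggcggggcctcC

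The copy at Zmym5 had peaks of its own in every list, and they resembled those of Zmym2. ESCs had a peak of 210 bp there (chr14:57431542-57431751), which aligns with the interval from 57504217 to 57504427 of Zmym2 and so with the first ESC peak of that gene. D-EPSCs had a peak of 1223 bp (chr14:57430542-57431764) and L-EPSCs one of 1234 bp (chr14:57430572-57431805). The counterpart of the second ESC peak of Zmym2 was not found at Zmym5, and the D-EPSC peak of Zmym5 did not extend past the base that aligns with 57505422, before the Zmym2 start. The order of ESCs below both EPSC types in covered bases was thus seen at both loci. How the placement or loss of reads that fit both loci bears on this order was not tested.

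**Figure D2:**
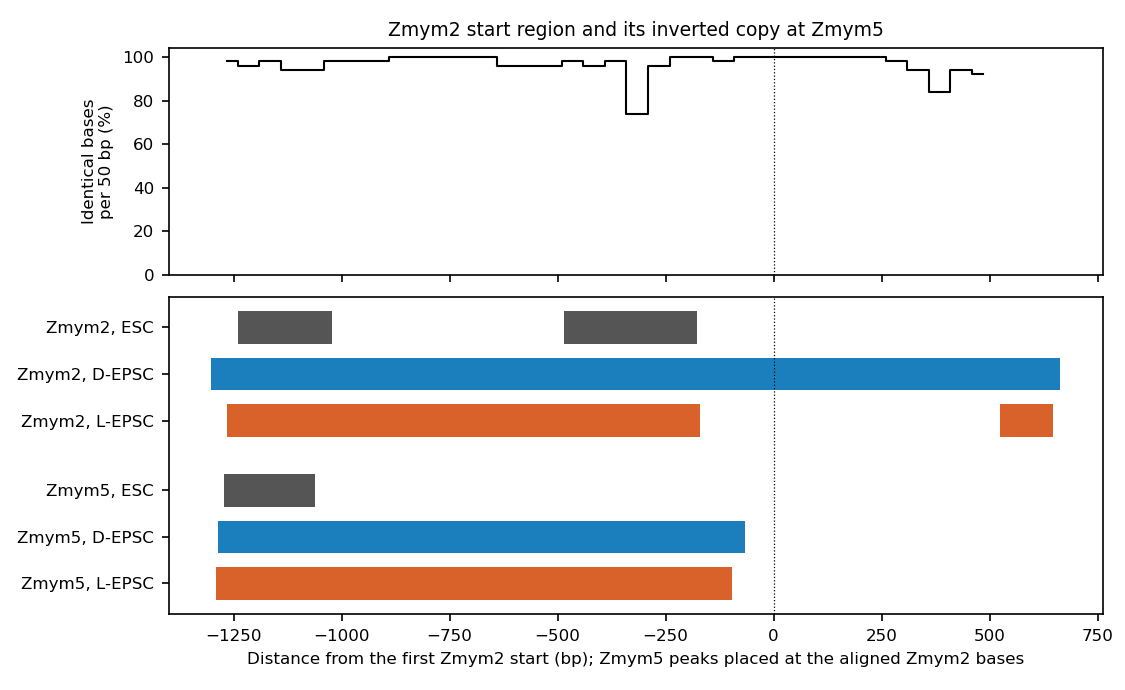
Upper panel, share of bases identical between the Zmym2 start region and its inverted copy at Zmym5, in steps of 50 bp, against the distance from the first Zmym2 start in bp. Lower panel, peaks of the 3 lists at Zmym2 and, placed at the aligned bases, at Zmym5. Identity is 100% across the start, where D-EPSCs have a peak at Zmym2 and the other lists have none.

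Tet1 (chr10:62267318-62361866, minus strand) was the gene without an EPSC peak within 1 kb of any GENCODE start. GENCODE M1 begins the gene at 62361866, and RefSeq begins it 11794 bp further into the gene, at 62350072. Near the GENCODE start ESCs had a peak of 343 bp in the first intron (chr10:62360941-62361283), from 583 to 925 bp past the start. No EPSC peak lay within 1 kb of that start, the nearest L-EPSC peak being 2019 bp and the nearest D-EPSC peak 5559 bp from it. An ESC start peak with none in either EPSC list was found at 66 of all genes, 0.295%. Of the 3 distances tried, this call of Tet1 held at 1 kb only. At 500 bp ESCs had 5 of 6 genes, without Tet1, and at 2.5 kb L-EPSCs had 6 of 6, Tet1 included.

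At the RefSeq start of Tet1 the lists were the other way round. D-EPSCs had peaks of 604 bp (chr10:62349709-62350312) over the start and 1220 bp (chr10:62348327-62349546) downstream of it, and L-EPSCs a peak of 857 bp over the start (chr10:62349351-62350207). The merged region (chr10:62348327-62350312) had no ESC peak, and the nearest was 5288 bp away. Peaks of both EPSC lists at a RefSeq start with none in ESCs were found at 9.05% of the genes placed. The 250 bases before this start, printed above, had a GC content of 62.8% and a CpG observed/expected ratio of 0.63, the number of CpG dinucleotides over that expected from the C and G content. They held none of the 9 motifs.

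Inside Tet1, a further region 33.1 kb past the GENCODE start was in both EPSC lists only (chr10:62327986-62329471). It held a D-EPSC peak of 1477 bp and L-EPSC peaks of 349 and 121 bp, was intronic, and was 11267 bp from the nearest ESC peak. In turn ESCs alone had an intronic peak of 192 bp at 21.0 kb (chr10:62340739-62340930), 306 bp from an L-EPSC peak, and another of 603 bp at 55.0 kb (chr10:62306553-62307155). With peaks within 500 bp merged, the former was no longer in ESCs only, and the ESC-only regions of the 6 genes went from 5 to 4. The latter was the widest ESC-only region of the 6 genes, and it lay 2727 bp from an L-EPSC peak and 4030 bp from a D-EPSC peak. Within the gene, only the region at 5.98 kb was shared by all 3 lists, where the ESC peak was 235 bp, the D-EPSC peak 843 bp and the L-EPSC peak 486 bp. The second shared region of the window, 107 kb past the start with peaks of 1084, 1469 and 994 bp (chr10:62254578-62256046), was at the start of the neighbouring gene Ccar1. It was the widest shared region of the Tet1 window, and the EPSC-only region at the RefSeq start was the widest of all regions over 1 kb from a GENCODE start.

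The other 6 Tet1 regions were in a single EPSC list and were narrow. D-EPSCs had peaks of 119 bp at 14.8 kb and 117 bp, in a coding exon, at 59.4 kb. L-EPSCs had peaks of 185 bp at 2.11 kb, 282 bp in a coding exon at 20.5 kb, 192 bp at 51.9 kb and 161 bp past the gene at 94.9 kb. Both D-EPSC peaks had one of the 2 commonest widths of that list, 119 and 117 bp, which make up 5.46% of its peaks and lie at its lower limit of 117 bp. Over the 6 windows, 5 of 31 D-EPSC peaks had these widths. In all, Tet1 had 5 ESC, 7 D-EPSC and 9 L-EPSC peaks in 13 regions, of which 2 were in all lists, 2 in both EPSC lists only and 3 in ESCs only.

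**Figure D3:**
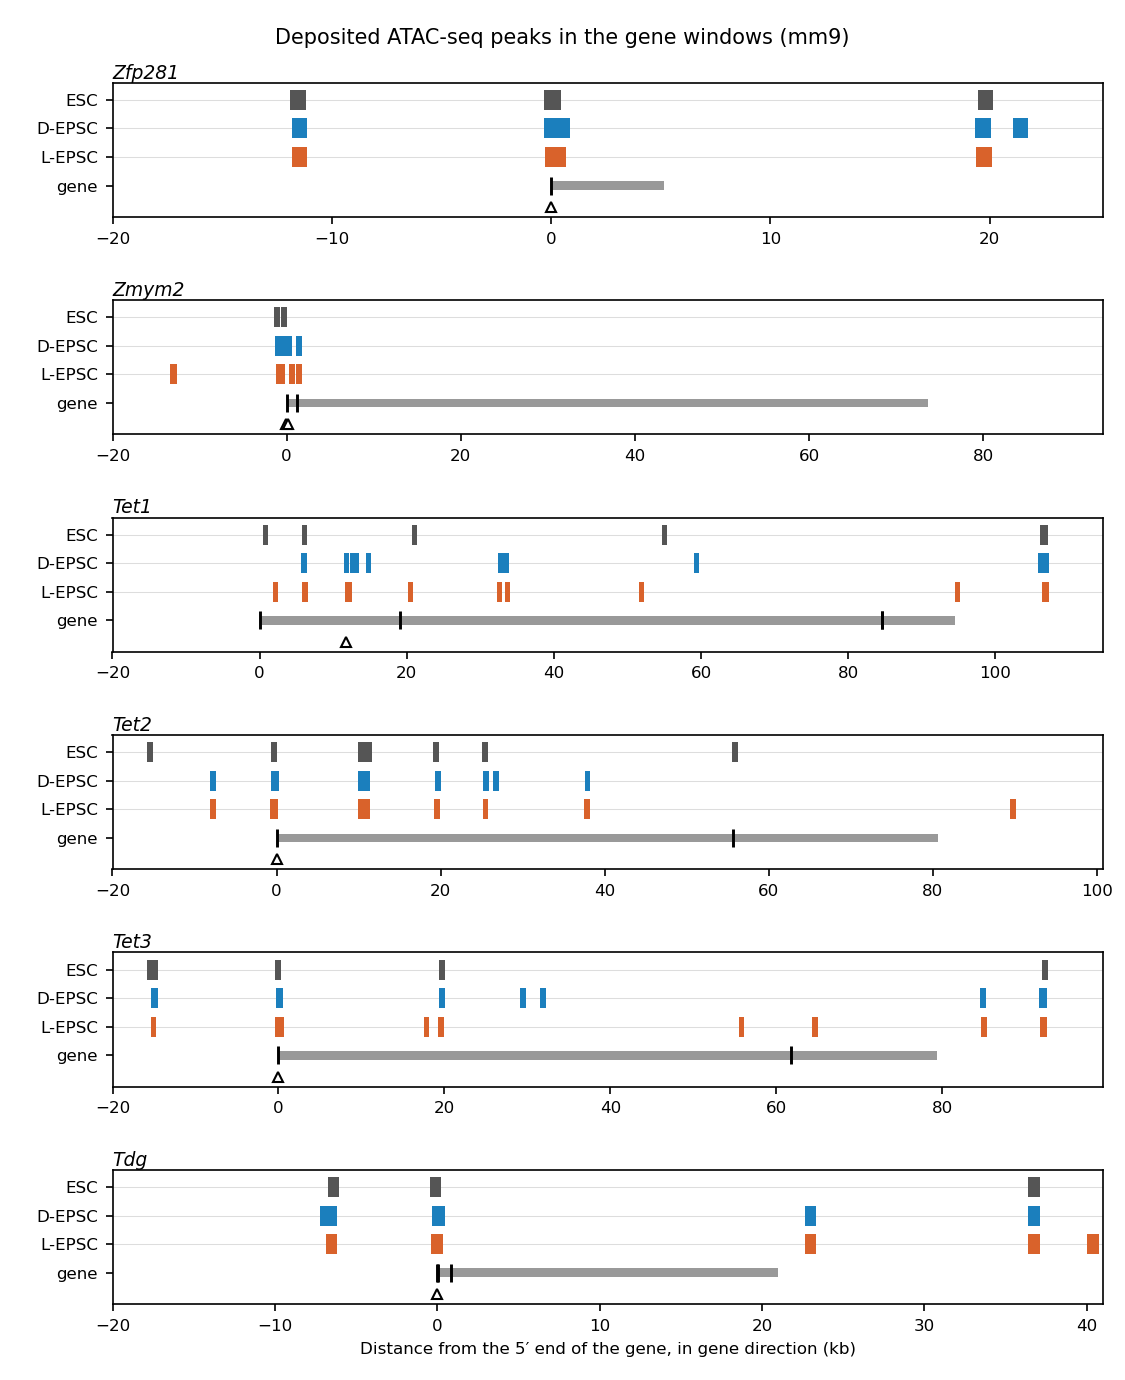
Peaks of the 3 lists in the 6 gene windows against the distance from the 5′ end of the gene in kb, in the direction of the gene, with narrow peaks widened to stay visible. The grey bar is the gene, black ticks are GENCODE coding starts and open triangles RefSeq starts. Peaks of Zmym2 cluster at its start, whereas those of Tet1, Tet2 and Tet3 spread over the introns.

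Tet2 (chr3:133126643-133207354, minus strand) had 4 of its 10 regions in all lists. Its start peak was 789 bp in ESCs (chr3:133207241-133208029), 1050 bp in D-EPSCs (chr3:133207037-133208086) and 984 bp in L-EPSCs (chr3:133207197-133208180). The widest region of the window was not the start but an intronic one 10.7 kb downstream (chr3:133195768-133197477), with peaks of 1652 bp (ESC), 1372 bp (D-EPSC) and 1529 bp (L-EPSC). Here the ESC peak was the widest of the 3, the reverse of the order at the start. Its middle, the fifth sequence, was 46.7% GC with a CpG ratio of 0.245 and held no searched motif. Intronic regions at 19.5 kb (708, 359 and 690 bp) and 25.5 kb (367, 508 and 460 bp) were also in all lists.

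EPSC-only and ESC-only regions were found on both sides of the Tet2 start. Both EPSC lists had an intronic region at 37.9 kb (chr3:133169194-133169766), of 457 bp (D-EPSC) and 508 bp (L-EPSC), 11944 bp from any ESC peak. They also had one 7.73 kb upstream (chr3:133214986-133215178), of 117 bp in D-EPSCs, the lower limit of that list, and 193 bp in L-EPSCs. ESCs alone had a peak of 270 bp 15.5 kb upstream (chr3:133222679-133222948) and one of 227 bp at 55.9 kb (chr3:133151322-133151548). The latter was in a coding exon 87 bp from the second annotated start of Tet2, and the nearest D-EPSC peak to it was 17645 bp away. Single peaks of 119 bp in D-EPSCs at 26.8 kb and of 142 bp in L-EPSCs at 89.8 kb completed the window, which held 6 ESC, 7 D-EPSC and 7 L-EPSC peaks.

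Tet3 (chr6:83312367-83391672, minus strand) had a start peak that was widest in L-EPSCs. It measured 497 bp in ESCs (chr6:83391502-83391998), 877 bp in D-EPSCs (chr6:83391130-83392006) and 1092 bp in L-EPSCs (chr6:83391058-83392149). The edge inside the gene moved from 170 bp past the start in ESCs to 542 bp (D-EPSC) and 614 bp (L-EPSC). A CpG-rich region 15.0 kb upstream (chr6:83406184-83407200, 80% GC in its central 400 bp) was open in all lists, with ESC peaks of 543 and 128 bp, 884 bp (D-EPSC) and 690 bp (L-EPSC), and was the widest region away from the start. It held 5 GC boxes and 2 matches to the Zfp281 core. An intronic region at 19.7 kb was in all lists too, with 433 and 439 bp in ESCs and D-EPSCs and 118 bp, the lower limit of the list, in L-EPSCs.

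No Tet3 region was in ESCs only. The region in both EPSC lists only (chr6:83306457-83306867, 188 bp (D-EPSC) and 318 bp (L-EPSC)) lay 85.0 kb past the start in an intron of the neighbouring gene Bola3, whose own start region at 92.2 kb was open in all lists. D-EPSCs alone had intronic peaks of 512 bp at 29.5 kb and 117 bp at 31.9 kb. L-EPSCs alone had peaks of 228 bp at 17.8 kb, 170 bp at 55.8 kb and 295 bp, in a coding exon, at 64.7 kb. Tet3 thus had 5 ESC, 7 D-EPSC and 8 L-EPSC peaks.

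Tdg (chr10:82092573-82113544, plus strand) had the narrowest start peaks of the 5 genes open at a start in every list, apart from Zmym2 in ESCs. They were 424 bp in ESCs (chr10:82092246-82092669), 753 bp in D-EPSCs (chr10:82092272-82093024) and 523 bp in L-EPSCs (chr10:82092304-82092826). As at Zfp281, the upstream edges were close (327, 301 and 269 bp before the start) and the downstream edges apart (96, 451 and 253 bp past it). No peak lay in the body of Tdg beyond its start region. The widest region away from the start (chr10:82085340-82086419), of 439, 1080 and 633 bp, was at the start of 1190007I07Rik 6.69 kb upstream. Of this region, 84.4% aligned with another stretch of chromosome 10 at 92.4% identity.

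The other 3 regions of the Tdg window were beyond the gene, in Glt8d2. That at 23.0 kb was in both EPSC lists only (278 bp (D-EPSC) and 129 bp (L-EPSC), chr10:82115438-82115715) and stood 10 bp from a coding start of Glt8d2. That at 36.8 kb was in all lists with 165, 232 and 197 bp, and that at 40.4 kb in L-EPSCs only with 308 bp. Counted by the nearest coding start, Tdg kept 1 peak in each list.

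Start peaks were compared with those of all genes that had one in the same list. The widest start peak had a median of 541 bp over 11515 genes (ESC), 741 bp over 14180 genes (D-EPSC) and 690 bp over 13586 genes (L-EPSC), and the 5 members with a start peak in every list had medians of 497, 1050 and 984 bp. Zfp281 stood at percentiles 79.1, 88 and 76.2 and Tet2 at 78.3, 78.5 and 78.2 in the same order, so that Tet2 held its rank in every list. Tet3 stood at 44.1, 64.6 and 85.2 and Tdg at 33.1, 51.4 and 29.8. The start peak was wider in both EPSC lists than in ESCs at all 5 genes that had one in every list, against 71.3% of the 11270 genes of the annotation that did. Zmym2 was among the 5, and how far read placement at its copy sets the edges of its peaks was not tested. With no replicates, the spread of a width within a state is unknown and these differences have no test.

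**Figure D4:**
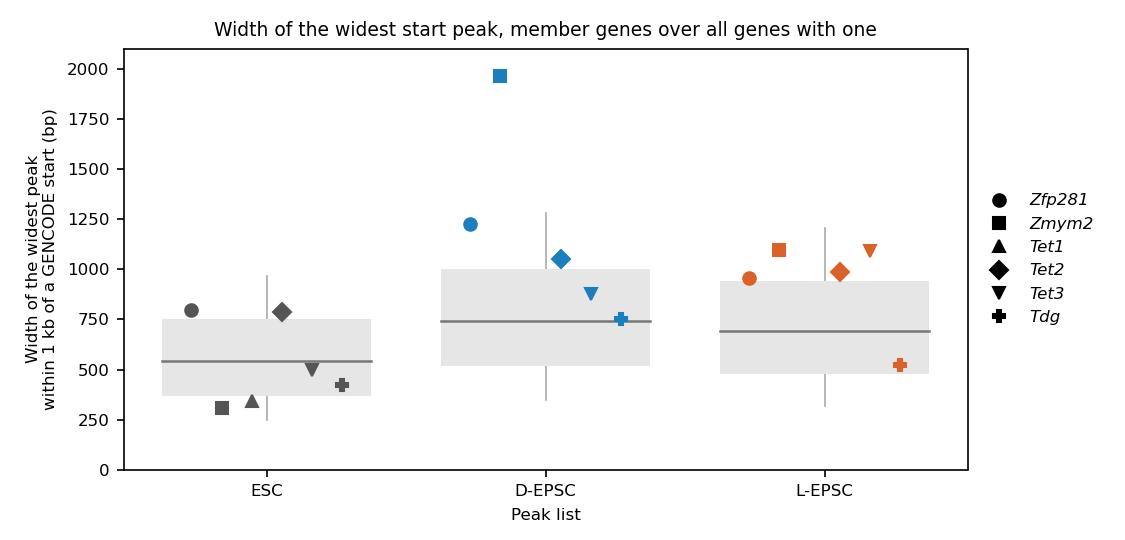
Width in bp of the widest peak within 1 kb of a GENCODE start of each member (symbols) in each list. Grey boxes span the quartiles of all genes with a start peak, their lines the median, and the thin lines the percentiles from 10 to 90. The Zmym2 symbol lies at 307 bp (ESC), 1965 bp (D-EPSC) and 1095 bp (L-EPSC), and Tet1 appears in ESCs only.

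Merging the peaks of the 3 lists gave 45 regions in the 6 windows, and the share of each class was set against all 65518 regions. Every list had a peak in 17 regions (37.8%, against 33.2% of all regions), and both EPSC lists only in 7 (15.6%, against 18.4%). D-EPSCs only had 6 (13.3%, against 22.3%), L-EPSCs only 10 (22.2%, against 15.8%) and ESCs only 5 (11.1%, against 5.12%). The 5 ESC-only regions were all at Tet1 (3) and Tet2 (2). A region in both EPSC lists only was found in 5 of the 6 windows, all but Zfp281, against 43.9% of all gene windows. That share is over windows of any length and peak number, and the member windows were not matched to it. Tet1, Tet2 and Tet3 stood at percentiles 95.1, 97.8 and 95.1 of all windows by ESC peak count, and the other members between 58.7 and 77.3. Shared regions were wider, with a median of 995 bp, than those in both EPSC lists only (411 bp) and in ESCs only (270 bp). A region spans the peaks of every list in it, so part of this order comes from the merging itself.

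Of the 45 regions, 8 were within 1 kb of a start of the member itself, 4 within 1 kb of the start of a neighbour and 33 farther from any coding start. Shared regions held 5 of those 8, ESC-only regions 2 (Tet1 and the second start of Tet2) and the EPSC-only class 1 (the second start of Zmym2). Of the EPSC peaks of the windows, 54.8% of D-EPSC peaks (17 of 31, 95% Wilson interval 37.8 to 70.8, against 46.4% of the whole list) and 47.2% of L-EPSC peaks (17 of 36, 32 to 63, against 50.9%) were overlapped by an ESC peak. In the opposite direction D-EPSC peaks overlapped 75% of ESC peaks (18 of 24, 55.1 to 88, against 81.4%) and L-EPSC peaks 79.2% (19 of 24, 59.5 to 90.8, against 82.7%). The intervals cover counting error only, and each held the share of its whole list.

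The longer EPSC lists had more peaks at most of the genes. Of the 6 windows, 5 had more D-EPSC than ESC peaks (all but Zmym2, with 2 in each), against 56.5% of all gene windows. Also 5 had more L-EPSC than ESC peaks (all but Zfp281, with 3 in each), against 52.5%. These shares, too, are over windows of any length and peak number. Counting only peaks whose nearest coding start is the member left 4 windows with more D-EPSC and 4 with more L-EPSC than ESC peaks. In the members D-EPSC peaks were 1.29 times and L-EPSC peaks 1.5 times as many as ESC peaks, and in the whole lists 1.73 and 1.61 times. By covered bases the order of the EPSC lists in the members was the other way, at 1.73 times (D-EPSC) and 1.44 times (L-EPSC) the ESC value. When each list was cut to its 28965 widest peaks, the length of the ESC list, the windows held 24, 20 and 22 peaks and in none did an EPSC list have more than ESCs. Of the 7 regions in both EPSC lists only, 3 kept that class: both Tet1 regions and the one at 37.9 kb in Tet2. This cut drops D-EPSC peaks under 309 bp and L-EPSC peaks under 279 bp and no ESC peak, so it favours narrow ESC peaks. Shared regions that lost their EPSC peaks to it brought the ESC-only class from 5 to 7.

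**Figure D5:**
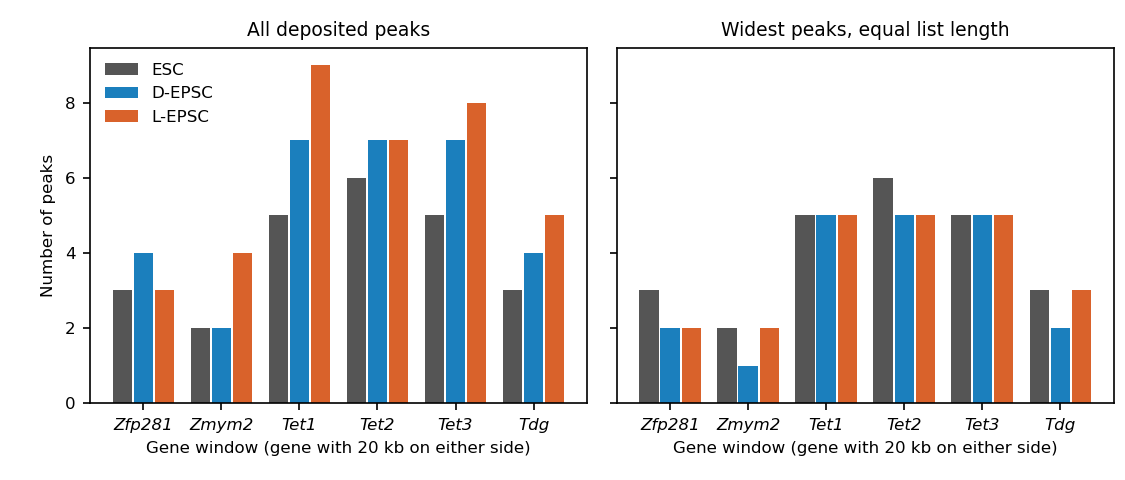
Number of peaks in each gene window by list, with all deposited peaks (left) and after cutting every list to its 28965 widest (right). The bars start at 0. With all peaks the EPSC bars reach 9 at Tet1, and at equal list length no EPSC bar is higher than the ESC bar of its gene.

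Shared regions were richer in G and C than those of the other classes, in the members as over all regions. In 400 bp around the midpoints the median GC content was 57.5% in shared member regions, 50.2% in those of both EPSC lists only and 47.8% in those of ESCs only, and over all regions of those classes 57.8%, 53.2% and 48.8%. The median CpG ratio was 0.66, 0.357 and 0.176 in the members and 0.545, 0.307 and 0.192 over all regions. The Zfp281 core was found in 1 of 45 regions (2.22%, against 7.84% of all regions), the ESC-only region near the GENCODE start of Tet1. The GC box was in 4 (8.89%, against 12.6%), the AP-2 site in 9 (20%, against 20.2%) and the octamer in 3 (6.67%, against 2.85%), while within whole regions the octamer was in 1 (2.22%, against 3.19%). The KLF and Ronin sites were in 3 each (6.67%, against 6.55% and 3.23%), the ESRRB site in 2 (4.44%, against 1.47%), the TCF/LEF site in 1 (2.22%, against 4.87%) and the NRF1 core in 0 (0%, against 1.88%). Over whole regions the Zfp281 core was in 4 (8.89%, against 9.92%), with the starts of Zfp281 itself and Zmym2 and the region upstream of Tet3 added. These are counts of letters in few regions, and AP-2 and GC-box letters can overlap.

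Other genes of the same pathways were described by their start peaks, against 51.5% (ESC), 63.4% (D-EPSC) and 60.8% (L-EPSC) of all genes. Of 18 other genes of demethylation and base excision repair, 14, 16 and 15 had one. Smug1, a uracil glycosylase, had none in any list. Apobec1, a cytidine deaminase, and Ogt, the O-GlcNAc transferase that binds Tet proteins, had one in D-EPSCs only (145 and 418 bp). Cxxc5, a CXXC protein, had one in both EPSC lists only (659 and 1278 bp).

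Of 18 genes of the Zmym family and of the CoREST and KAP1-SETDB1 repressors, 16 had a start peak in ESCs and 18 in each EPSC list. Those without one in ESCs were Rcor2, a CoREST protein (1274 bp (D-EPSC) and 296 bp (L-EPSC)), and Atf7ip, a SETDB1 partner (460 and 527 bp). Of 10 genes made up of Zfp148, a relative of Zfp281, and NuRD subunits, 6, 8 and 9 had one. The NuRD helicase gene Chd4 (1348 and 1802 bp) and Mta3 (814 and 532 bp) had one in both EPSC lists only, Mta1 in L-EPSCs only (306 bp) and Gatad2b in none. Start peaks of both EPSC types where ESCs had none were found at 9.16% of all genes.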

How the data were processed

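ATAC-seq peaks of 3 cell states, with 2 technical replicates each, were analysed. The authors aligned trimmed reads (Trim Galore 0.6.3, per the submitters' processing notes) to mm9 with Bowtie2 2.3.5, filtered proper pairs of mapping quality 20 or more in SAMtools 1.10, and ran MACS at default settings to call peaks. How replicates were combined, and whether duplicates were removed, is not given in the sources used here. The deposited files hold peak positions and names, with no counts, score or depth, and their starts were read as counted from 0. Only assembled chromosomes other than M were used, and 0 peaks ended beyond a chromosome of NCBIM37, the same assembly as mm9.

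RefSeq promoters (GRCm38.p6) were placed on mm9 by exact match of their 300 bases, and 20503 of 21255 matched a single site. The second Zmym2 promoter, which also matches the copy at Zmym5, was placed within the gene window. Regions merge peaks that share at least 1 bp. Copies were sought with BLAST 2.17.0 and aligned with Biopython 1.88, and 8 of 45 regions had an alignment elsewhere of at least 100 bp at 90% identity. Motifs were searched without mismatch in 400 bp around midpoints. The scripts used Python 3.11.15 and numpy 2.4.6, and overlap and merging were tested on simulated lists.

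Named were the 6 members, with coordinates for start peaks, regions in both EPSC lists only or in ESCs only and the widest region away from a start, and every pathway gene that lacked a start peak in some list, except 1 that is not reported here. The members and lists were chosen with earlier results of these data known. Alternatives were other windows, start distances, overlaps and list lengths.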

Additional observations from a re-analysis of the deposited data

How the results depend on the processing

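No paired analysis was possible because there is 1 list for each state and its columns carry no replicate number. Nor could any replicate be left out. Of 121 recomputed values of the main results, 93 stayed within 1.5 times the value or, for shares, within its interval, 27 moved and 1 was reversed. The reversed value was the number of EPSC-only regions (both lists) over that of ESC-only regions, 1.4 with all peaks and 0.429 with the widest peaks at equal list length. Alternatives for this ratio, the windows with more EPSC peaks, the RefSeq starts and the pathway genes were chosen after seeing the data.

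At equal list length the windows held 20 D-EPSC and 22 L-EPSC peaks, 0 and 0 windows had more D-EPSC or L-EPSC than ESC peaks, 3 regions were in both EPSC lists only, and ESC peaks overlapped 75% of D-EPSC and 63.6% of L-EPSC peaks. Fewer peaks enter there by construction. With the widest 50% of each list the windows held 13 ESC, 18 D-EPSC and 16 L-EPSC peaks in 20 regions, of which 9 were shared and 1 in ESCs only, the ratio was 5, and L-EPSC peaks were more numerous in 3 windows. With 50 kb on either side D-EPSCs had 51 peaks, 68 regions were found, 14 in both EPSC lists only, and the ratio was 2.8, while 10 kb left 11 shared regions. A reciprocal overlap of 50% gave 54.2% of ESC peaks overlapped by D-EPSCs, 54.2% by L-EPSCs and 55.6% of L-EPSC peaks by D-EPSCs. Over whole regions the Zfp281 core was in 4 (9.92% of all regions), the GC box in 7 (16.3%), the octamer in 1 (3.19%) and the NRF1 core in 1 (2.58%). The members with a start peak were 5 or 6 in every list at 500 bp, 1 kb and 2.5 kb, at equal list length and with RefSeq starts, but the Tet1 call (ESC peak, no EPSC peak) was lost at 500 bp (5 genes in every list), at 2.5 kb (6 in L-EPSCs) and with RefSeq starts. Depth is unknown, and it limits every statement on a missing peak.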
